A study of Mus musculus with 4 samples.

Results

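Chromatin accessibility in monocytes of mouse femur and mandible bone marrow was followed at the loci of 5 genes grouped as highly transcribed. The genes are Actb, Srgn, Ywhaz, Hnrnpa2b1 and Ccnl1, and their transcription was not measured in these libraries. The members are the deposited ATAC-seq peaks that overlap a fixed window of GRCm39 around each gene. The 5 windows held 33 of the 57090 peaks of the series. The 6 peaks at Actb lay between 142880312 and 142907334 on chromosome 5, the 11 at Srgn between 62321632 and 62380034 on chromosome 10, the 6 at Ywhaz between 36760943 and 36795256 on chromosome 15, the 2 at Hnrnpa2b1 between 51435859 and 51448337 on chromosome 6, and the 8 at Ccnl1 between 65845781 and 65879343 on chromosome 3. The windows were selected on the log2 fold change of mandible against femur in the same libraries, so the difference between sites is given below as a description and not as a test. ATAC-seq reads mark where a transposase could insert adapters into open chromatin. The 4 libraries were femur replicate 1 and mandible replicate 1 of batch A, and femur replicate 2 and mandible replicate 2 of batch B. Each library was made from 20000 cells of 4 pooled 2-mo-old mice that the labels give as male, and both libraries of a batch came from the same pooled mice, so each site had n = 2 pools. The labels call the cells CD11b+, and the strain was C57Bl/6J. Monocytes were the marrow cells that a negative isolation kit left unbound, and the Methods describe male and female mice for this isolation. Accessibility at marker genes of monocytes or of other marrow cells was not analysed here, because gene positions on GRCm39 were not used here. In bulk libraries, a change in the share of a cell type and a change within cells cannot be told apart.

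The 5 genes have broad roles in cells, Srgn in the secretory granules of blood cells. Actb encodes beta-actin, the main subunit of cytoplasmic actin filaments. Srgn encodes serglycin, the proteoglycan core protein that packs proteases and other cargo into the secretory granules of blood cells. Ywhaz encodes the zeta member of a family of adaptor proteins that bind phosphorylated serine and threonine. Hnrnpa2b1 encodes a heterogeneous nuclear ribonucleoprotein that binds pre-mRNA and takes part in splicing and RNA transport. Ccnl1 encodes an L-type cyclin that partners kinases acting on transcription and splicing. At genes with very high transcription, accessibility is usually highest in a compact region at the promoter, while the passage of RNA polymerase can open the transcribed body and the stretch past its end at a lower level.

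RefSeq placed all 5 genes on the minus strand of GRCm38.p6 and on the same chromosomes as the windows. Its promoter table matched 3 of the 5 genes. The 4 windows below, each from 250 bases before to 50 bases after a gene start, are from the 3 matched genes, Srgn, Hnrnpa2b1 and Ccnl1. They are on the minus strand of GRCm38.p6, and no peak was placed on them, since the peaks are on GRCm39. Capitals mark matches on either strand to 7 motifs: TATAAA of the TATA box, CCAAT of the CCAAT box, GGGCGG of the GC box, TGACGTCA of the cyclic AMP response element, TGANTCA of AP-1, GAGGAAGT of PU.1, and the CArG box.
Srgn upstream start, chr10:62527396-62527695: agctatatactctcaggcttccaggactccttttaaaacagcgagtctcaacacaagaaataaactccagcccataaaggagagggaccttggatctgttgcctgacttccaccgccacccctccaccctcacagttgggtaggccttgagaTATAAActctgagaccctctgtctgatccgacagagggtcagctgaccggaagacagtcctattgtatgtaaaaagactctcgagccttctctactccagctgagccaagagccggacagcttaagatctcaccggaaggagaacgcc
Srgn downstream start, chr10:62507708-62508007: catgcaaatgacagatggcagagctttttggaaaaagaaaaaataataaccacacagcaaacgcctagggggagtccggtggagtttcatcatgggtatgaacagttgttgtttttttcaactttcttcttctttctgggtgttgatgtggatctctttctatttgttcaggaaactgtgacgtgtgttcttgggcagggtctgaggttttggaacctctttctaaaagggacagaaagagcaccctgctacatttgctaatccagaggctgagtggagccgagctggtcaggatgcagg
Hnrnpa2b1, chr6:51469845-51470144: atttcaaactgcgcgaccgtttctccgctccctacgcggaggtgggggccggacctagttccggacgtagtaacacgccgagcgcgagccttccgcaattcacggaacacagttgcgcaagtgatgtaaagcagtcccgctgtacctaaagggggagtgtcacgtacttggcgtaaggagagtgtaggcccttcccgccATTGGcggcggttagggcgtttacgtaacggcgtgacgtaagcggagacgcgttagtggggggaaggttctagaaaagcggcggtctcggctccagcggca
Ccnl1, chr3:65958200-65958499: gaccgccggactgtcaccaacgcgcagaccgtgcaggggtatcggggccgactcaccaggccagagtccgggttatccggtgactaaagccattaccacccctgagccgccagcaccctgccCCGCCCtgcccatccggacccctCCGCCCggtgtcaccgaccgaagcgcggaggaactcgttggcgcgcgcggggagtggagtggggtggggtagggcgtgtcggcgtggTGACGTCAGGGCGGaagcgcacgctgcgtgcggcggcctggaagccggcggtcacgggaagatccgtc

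The upstream Srgn start had a single TATAAA, which begins 98 bases before the start, and 13.6% of the 32851 RefSeq promoter windows held this motif. The downstream Srgn start had none of the 7 motifs. Hnrnpa2b1 had a single CCAAT on the opposite strand, a motif held by 37.4% of windows, beginning 51 bases before the start shown, and a second listed start window that overlaps this window is left out. Ccnl1 had 3 matches to GGGCGG, which 35.7% of windows held, and a single TGACGTCA, which 1.79% held, 18 bases before the start and directly next to a GGGCGG without overlap. TGANTCA, GAGGAAGT and the CArG box were in none of the 4 windows, and were held by 7.81%, 3.202% and 1.63% of all windows. GC content was 51% and 45% at the Srgn starts, 60% at Hnrnpa2b1 and 71% at Ccnl1, against a median of 52.7%. The observed over expected CpG ratio was 0.420 and 0.276 at Srgn, 1.28 at Hnrnpa2b1 and 0.981 at Ccnl1, against a median of 0.384, so Srgn lay near or below the middle of all windows and the other genes far above it.

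The total counts in peaks ranged from 27464565 to 75294068 per library. Femur replicate 2 was the deepest library and mandible replicate 2 the shallowest. Femur replicate 2 also stood apart, with a SD of 0.419 across peaks for its log2 deviation from the mean of the other libraries, against 0.232 to 0.318 for the other 3 libraries. Levels below are loess-normalized CPM, that is counts scaled to library size (CPM) and corrected for trends of each library with peak abundance. Levels of different peaks were compared only per kb of peak length.

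In each of the 5 windows, a long peak of low density lay beside a peak with far more reads, and the long low-density peak had more reads in mandible than in femur with every scaling used. A wide sparse peak is here a peak longer than 1000 bp with a mean below 19.5 CPM per kb, the median density of all 57090 peaks. This density limit was not planned, as the plan named the longest peak over 1000 bp of each window besides the promoter peak. The 10 window peaks over 1000 bp above the limit had log2 fold changes from -0.03 to 0.20, with a median of 0.065. The windows held 9 of the 723 wide sparse peaks of the series, 1 at Actb, 3 at Srgn, 3 at Ywhaz, 1 at Hnrnpa2b1 and 1 at Ccnl1. The densest of them, Peak_5141 of Srgn, had 15.3 CPM per kb, and the nearest window peak over 1000 bp on the other side of the limit, Peak_42900 of Actb, had 23.1 CPM per kb. Both mandible libraries were above both femur libraries in all 9 and in 17 of the 33 window peaks, against 13.3% of all peaks. The log2 fold change was above 0 in 27 of the 33, against 49.1% of all peaks. Nothing is read from these counts, because the windows were chosen with this contrast known. The log2 fold change of the 9 peaks ranged from 0.54 to 2.09 with a median of 1.27, against a median of -0.0044 over all 57090 peaks. The peak with the most counts in each window stood in for the promoter peak, because start sites could not be placed on GRCm39 here. These 5 peaks had log2 fold changes from -0.03 to 0.18, which became 0.23 to 0.47 with TMM normalization, 0.13 to 0.38 with library size alone and 0.24 to 0.48 with DESeq2, so that 3 of them changed direction with the scaling. The 9 wide sparse peaks stayed higher in mandible with each of these scalings, from 0.64 to 2.10 with TMM normalization.

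**Figure D1:**
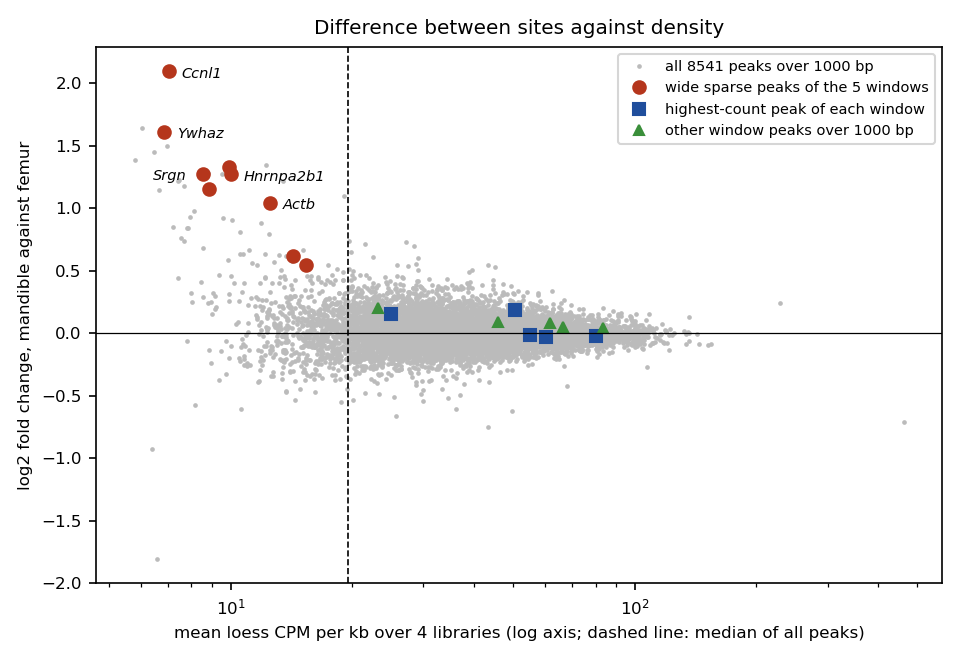
Log2 fold change of mandible against femur (vertical axis) against mean loess CPM per kb over the 4 libraries (horizontal log axis) for all 8541 peaks over 1000 bp (grey), with the window peaks over 1000 bp in color (other window peaks as green triangles). The 9 wide sparse peaks (red) lie left of the median density of all peaks (dashed) and between 0.54 and 2.09, whereas the 5 highest-count peaks (blue) lie between -0.03 and 0.18.

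At Actb, the wide sparse peak was the 18th longest of all peaks. Peak_42901 spans 7481 bp, from 142881727 to 142889207 on chromosome 5. Its level was 73.0 CPM in femur replicate 1 and 49.8 CPM in femur replicate 2, and 132 and 120.0 CPM in mandible replicates 1 and 2. The femur libraries were both below the mandible libraries, at 61.4 ± 16.3 (SD, n = 2) against 126 ± 8.62 (SD, n = 2), a log2 fold change of 1.04 (standard error 0.14). The highest-count peak, Peak_42902, began only 216 bp further on, at 142889424, and ran 4989 bp to 142894412. Femur had 251 and 220 CPM there and mandible 278 and 256 CPM, so the sites did not overlap here either, but they lay close, with a log2 fold change of 0.18 (standard error 0.08). Per kb, the wide peak averaged 12.5 CPM and the highest-count peak 50.4 CPM. The other 4 peaks of the window, from 346 to 1251 bp long, had log2 fold changes of 0.08 to 0.20 with standard errors of 0.12 to 0.22. One of them, Peak_42900, adjoined the wide peak on its far side and had a difference of only 0.20 on the log2 scale, with 25.1 and 28.7 CPM in femur and 30.3 and 31.7 CPM in mandible.

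At Srgn, 3 wide sparse peaks followed each other with gaps of 625 and 140 bp, and the last ended 102 bp before the highest-count peak, so they cover 1 stretch and are not independent of each other. The middle peak, Peak_5140, was the longest of the 3 at 4895 bp, from 62329970 to 62334864 on chromosome 10. It had 31.2 and 17.8 CPM in femur replicates 1 and 2, and 51.4 and 66.8 CPM in mandible replicates 1 and 2. The mandible libraries were well above the femur libraries, with a log2 fold change of 1.28 (standard error 0.21). The peaks on its sides differed less. Peak_5139, from 62326666 to 62329344, had 35.1 and 25.2 CPM in femur and 40.2 and 52.2 CPM in mandible, with a log2 fold change of 0.62 (standard error 0.18). Peak_5141, from 62335005 to 62337546, had 39.4 and 24.2 CPM in femur and 45.7 and 46.6 CPM in mandible, with a log2 fold change of 0.54 (standard error 0.19). In both of these, femur replicate 1 lay much nearer to the mandible libraries than femur replicate 2 did. The highest-count peak, Peak_5142, was itself the longest peak of the window, 7820 bp from 62337649 to 62345468. Femur had 209 and 161 CPM there and mandible 209 and 201 CPM, so femur replicate 1 was level with the mandible libraries and femur replicate 2 was lower. The log2 fold change was 0.15 (standard error 0.10). Its density of 25.0 CPM per kb was the lowest of the 5 highest-count peaks. The other 7 peaks of the window, among them a peak at each edge of 66.5 and 83.4 CPM per kb, had log2 fold changes from -0.10 to 0.15. RefSeq names Vps26a and Kifbp as the protein-coding neighbors of Srgn, and which peaks at the edges belong to them was not analysed here.

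At Ywhaz, the contrast between the peaks of 1 window was large. The highest-count peak, Peak_18707, 3670 bp from 36791587 to 36795256 on chromosome 15, had 301 and 292 CPM in femur and 293 and 291 CPM in mandible. The 4 libraries were alike there, with a log2 fold change of -0.02 (standard error 0.07), and its 80.2 CPM per kb were the highest density of the 5 highest-count peaks. At lower coordinates, 3 wide sparse peaks followed each other with gaps of 136 and 143 bp. The longest, Peak_18705, 3083 bp from 36782939 to 36786021, had 13.1 and 7.84 CPM in femur against 26.7 and 36.8 CPM in mandible (log2 fold change 1.61, standard error 0.24). At 6.84 CPM per kb it was the least dense of the 9. Peak_18704, from 36781106 to 36782802, had 11.03 and 8.15 CPM in femur against 18.4 and 29.5 CPM in mandible (log2 fold change 1.33, standard error 0.24). Peak_18706, from 36786165 to 36787290, had 7.72 and 4.73 CPM in femur against 14.2 and 13.3 CPM in mandible (log2 fold change 1.15, standard error 0.26). All 3 had the mandible libraries above the femur libraries. The remaining peaks of the window, Peak_18702 and Peak_18703, were under 200 bp long and had log2 fold changes of -0.04 (standard error 0.30) and 0.41 (standard error 0.34).

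At Hnrnpa2b1, the window held only 2 peaks. Peak_43933, 1824 bp from 51435859 to 51437682 on chromosome 6, had 12.3 and 9.15 CPM in femur and 22.9 and 28.8 CPM in mandible. The sites did not overlap, and the log2 fold change was 1.27 (standard error 0.21). Peak_43934, 2871 bp from 51445467 to 51448337, had 165 and 186 CPM in femur and 159 and 184 CPM in mandible. There the libraries of 1 batch were alike and the batches differed, and the log2 fold change between sites was -0.03 (standard error 0.09). Cbx3, the RefSeq neighbor of Hnrnpa2b1 on the side of higher coordinates, encodes a heterochromatin protein, and whether this peak also covers its start was not analysed here.

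At Ccnl1, the wide sparse peak had the highest log2 fold change of all 57090 peaks, which is the value that the windows were selected on. Peak_34224, 1992 bp from 65851499 to 65853490 on chromosome 3, had 7.17 and 3.55 CPM in femur and 14.3 and 31.0 CPM in mandible. The mandible libraries differed by more from each other than mandible replicate 1 did from femur replicate 1. The log2 fold change was 2.09, with the largest standard error of the 9 peaks, 0.34. With each library left out in turn it ranged from 1.47, without mandible replicate 2, to 2.66, without femur replicate 1. The counts of Peak_34224 were 322 and 282 in femur and 432 and 842 in mandible, so the deepest library held the fewest reads. The highest-count peak, Peak_34228, 3256 bp from 65863299 to 65866554, had 189 and 172 CPM in femur and 173 and 184 CPM in mandible, with a log2 fold change of -0.01 (standard error 0.09). Between these peaks lay 3 short peaks, also of low density. Peak_34225 had 9.03 and 4.05 CPM in femur and 9.87 and 11.4 CPM in mandible (log2 fold change 0.72, standard error 0.30). Peak_34226 had 6.23 and 1.82 CPM in femur and 5.51 and 7.95 CPM in mandible (0.77, standard error 0.40), and the sites overlapped. Peak_34227 had 1.84 and 0.995 CPM in femur and 2.18 and 3.81 CPM in mandible (1.09, standard error 0.41). Femur replicate 2 was the lowest library in each of the 3. The other 3 peaks of the window had log2 fold changes of 0.17 to 0.41 with standard errors of 0.25 to 0.32.

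**Figure D2:**
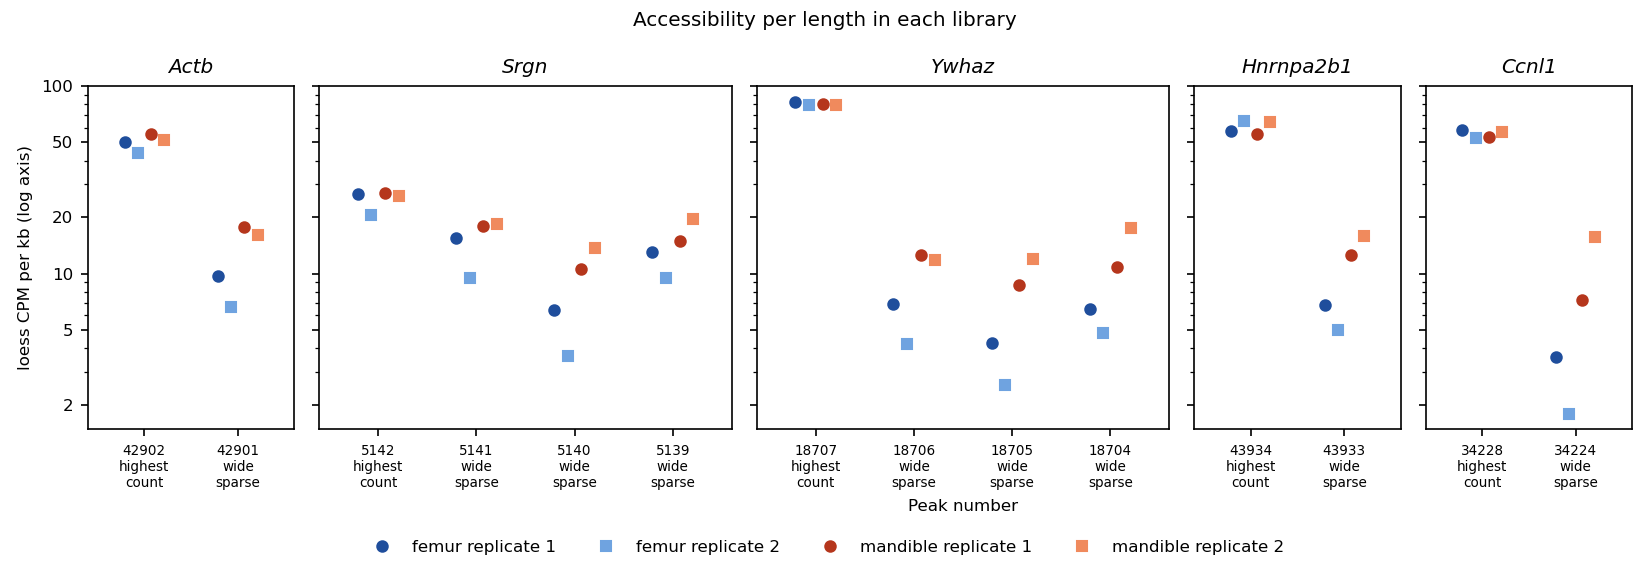
Loess CPM per kb (log axis) of the highest-count peak and the wide sparse peaks of each window, with 1 point per library (blue, femur; red and orange, mandible; circles, replicate 1 of batch A; squares, replicate 2 of batch B). In each of the 9 wide sparse peaks the femur points lie below the mandible points, with femur replicate 2 lowest, while the points of the highest-count peaks lie close together.

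The wide sparse peaks lay on the same side in every window. All 9 lay at lower coordinates than the highest-count peak of their window and 0 at higher coordinates, with gaps of 102 to 9808 bp and centers 5.28 to 13.6 kb apart. All 5 genes are on the minus strand, so transcription of each runs toward lower coordinates. Whether the highest-count peak lies at the start of its gene was not analysed here. The Ywhaz and Hnrnpa2b1 windows held no peak at higher coordinates than their highest-count peak. The 3 wide sparse peaks at Srgn and the 3 at Ywhaz each form 1 stretch. The windows were also chosen around these genes, so the shared side is a description and not a test. Whether a wide peak lies within the gene or past its end was not analysed here. The 9 peaks were 1126 to 7481 bp long and covered 27319 bp together, and their density was at the 0.0820th to 3.68th percentile of the 8541 peaks over 1000 bp. The highest-count peaks were 2871 to 7820 bp long, with densities of 25.0 to 80.2 CPM per kb. Across the 33 window peaks the log2 fold change fell with density (Spearman's rho = -0.82, n = 33). These peaks share libraries and neighboring DNA, and the windows were chosen on the log2 fold change, so nothing is read from this value. Across all 8541 peaks over 1000 bp rho was -0.067, and across all 57090 peaks it was 0.030. Of the 47 peaks over 1000 bp outside the windows with at most 10 CPM per kb, 35 had a log2 fold change above 0, with a median of 0.32, against a median of 1.33 for the 5 wide sparse window peaks in this range, which was set after the data were seen. Up to the 15.3 CPM per kb of the densest of the 9, 177 of 305 were above 0, with a median of 0.064, and the difference from other peaks was not tested.

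**Figure D3:**
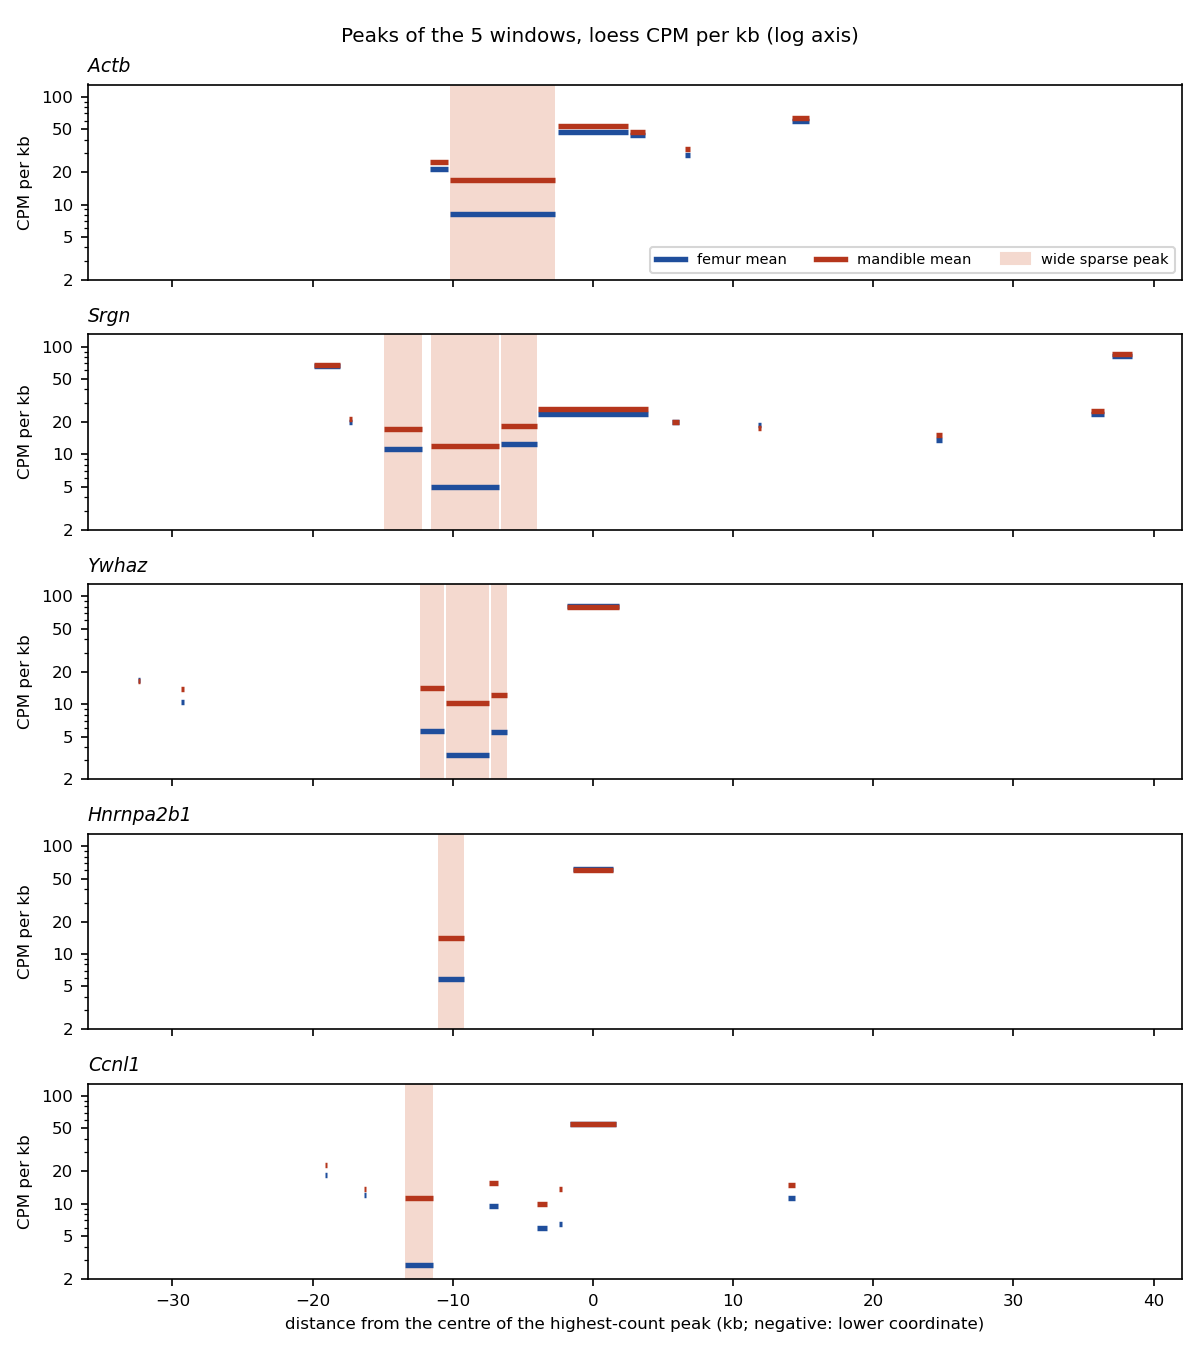
Peaks of each window as horizontal bars at their mean loess CPM per kb (log axis) in femur (blue) and mandible (red), placed by distance in kb from the center of the highest-count peak. The 9 wide sparse peaks (shaded) all lie on the negative side, at lower coordinates, and their red bars lie above their blue bars.

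A ratio of peaks within a library removes any constant factor of that library, but not a trend with peak abundance. Reads per kb in the longest wide sparse peak were therefore expressed as a percentage of those in the highest-count peak of the same window and library. At Actb this was 19.4% and 16.2% in femur replicates 1 and 2, and 30.0% and 30.7% in mandible replicates 1 and 2. At Srgn it was 24.0% and 19.6% in femur, and 35.9% and 51.8% in mandible. At Ywhaz it was 5.28% and 3.78% in femur, and 9.27% and 14.5% in mandible. In these 3 genes the percentage was higher in mandible in both batches. It was also higher at Hnrnpa2b1, with 12.1% and 8.85% in femur and 19.8% and 23.8% in mandible, and at Ccnl1, with 6.42% and 3.93% in femur and 11.7% and 26.5% in mandible. The mean log2 difference between sites was 0.78 ± 0.20 (SD, n = 2 batches) for Actb, 0.99 ± 0.58 for Srgn, 1.37 ± 0.80 for Ywhaz, 1.07 ± 0.51 for Hnrnpa2b1 and 1.81 ± 1.34 for Ccnl1, which is 1.71-fold to 3.50-fold. The other wide sparse peaks gave 0.29 and 0.25 at Srgn and 1.02 and 0.85 at Ywhaz. With the 3 wide sparse peaks of a window summed, the value was 0.51 at Srgn and 1.14 at Ywhaz. With all other peaks over 1000 bp of the window summed, dense ones included, it was 0.13 at Actb and 0.042 at Srgn. The difference was larger in batch B than in batch A in each of the 9, and at Ccnl1 the SD between batches was close to the size of the mean.

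**Figure D4:**
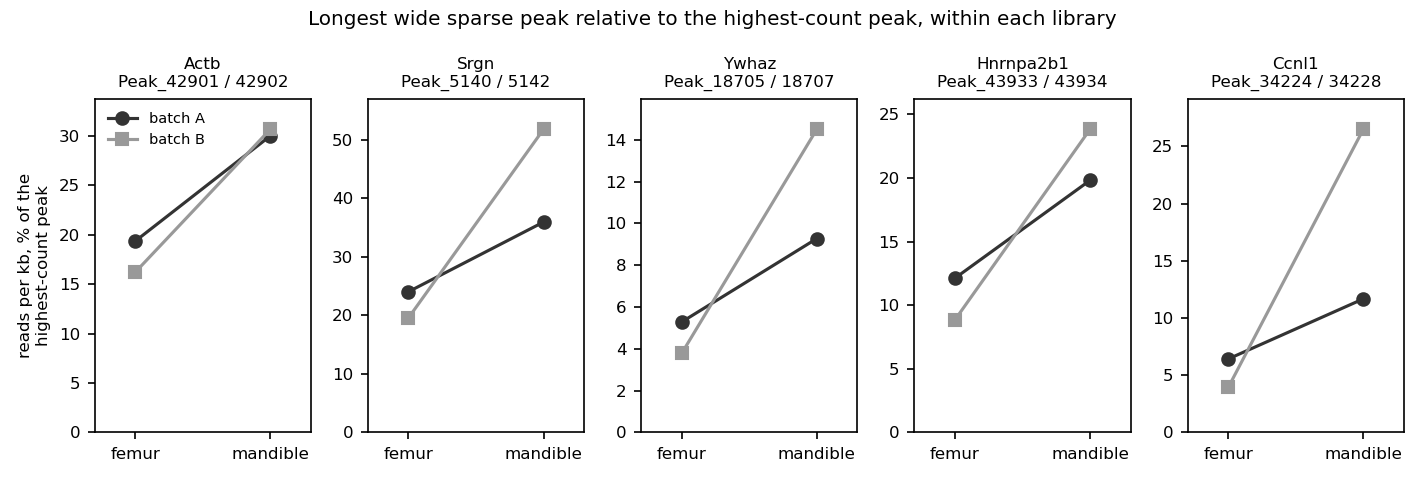
Reads per kb in the longest wide sparse peak as a percentage of reads per kb in the highest-count peak of the same window, in femur and mandible of batch A (dark) and batch B (grey), with an axis from 0 in each panel. Every line rises from femur to mandible, for example from 19.4% to 30.0% for Actb in batch A and from 3.93% to 26.5% for Ccnl1 in batch B.

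In the fit across all 57090 peaks by edgeR's quasi-likelihood test with the site as the only term, 2 of the 33 window peaks, Peak_42901 of Actb and Peak_18705 of Ywhaz, had an adjusted p-value under 0.05, both higher in mandible, where 0.00701% of all peaks passed in either direction and 0.00525% were higher. With batch as a replicate block, 7 of the 33 passed, all higher in mandible, where 0.0998% of all peaks passed in either direction and 0.0823% were higher. All 7 were wide sparse peaks, and of the 9 only Peak_5139 and Peak_5141 of Srgn were not among them. Of the 714 wide sparse peaks outside the windows, 19 passed as higher in mandible with the replicate block and 2 as lower. Nothing is read from these counts, because the windows were chosen with this contrast known. An exact permutation test of 2 libraries against 2 that ignores the pairing by pool cannot give a two-sided p below 0.333. Swaps kept within a pool allow fewer arrangements still.

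The size of the difference at the wide sparse peaks varied with the libraries used. Femur replicate 2, the deepest library, was lowest in all 9, and mandible replicate 2, the shallowest, was highest in 7, mandible replicate 1 being highest in the other 2. With reads of each library drawn at random down to the total of mandible replicate 2, the 9 log2 fold changes were 0.54 to 2.03 with a median of 1.23, against 1.27 without thinning. Without femur replicate 2 they were 0.22 to 1.64 with a median of 0.91, and without mandible replicate 2 they were 0.43 to 1.47 with a median of 1.12. Within batch A the difference was 0.20 to 1.03 and within batch B it was 0.95 to 3.13, all on the log2 scale and all higher in mandible. The 714 wide sparse peaks outside the windows had a median log2 fold change of 0.032, and 388 of them had a value above 0. They held 1.51% to 1.72% of the counts of each library. The 2855 peaks in the lowest 5% of density had a median of 0.0074. What depth or femur replicate 2 contributed to the difference at the 9 peaks was not tested beyond these values.

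The difference between batch B and batch A, which the choice of windows did not use, was tested with the site as a covariate. By edgeR's quasi-likelihood test, 0 of the 33 window peaks had an adjusted p-value under 0.05, against 0.0403% of all peaks. At an unadjusted p-value under 0.05 there were 4, against 2.93% of all peaks, and with DESeq2 0 and 2. Of these 4, Peak_42901 of Actb was the only wide sparse peak, at -0.34 (standard error 0.12) in batch B against batch A on the log2 scale. The other 3 were the highest-count peaks of Actb at -0.15 (standard error 0.08), Srgn at -0.21 (standard error 0.09) and Hnrnpa2b1 at 0.19 (standard error 0.09). Over the 9 wide sparse peaks the batch difference ranged from -0.40 to 0.12, lower in batch B in 7. This difference is taken over both sites, so opposite moves of the sites can cancel. At Peak_34224 of Ccnl1 it was 0.077, while from batch A to batch B femur went from 7.17 to 3.55 CPM and mandible from 14.3 to 31.0 CPM.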

How the data were processed

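The authors aligned trimmed reads to GRCm39 with Bowtie2 and discarded duplicates and poorly mapped reads. Peaks were called by Genrich from both libraries of a site together, and bedtools joined the peaks of the sites into 1 list. The deposited values are raw counts of reads per joined peak from featureCounts 2.0.6, which counted both mates of a pair separately. The maximum fragment length was set to 1000 bp, and whether this limit was enforced on the counted reads was not examined. The sources used here name no transposase shift of the counted reads. Peak borders come from pooled duplicates and were then merged, so the sites were compared by counts and not by borders. Lengths, densities and the class of wide sparse peaks rest on these borders. Which site's call gave a peak its place in the list or its width was not analysed here. Peaks that entered through the mandible call alone would be higher in mandible by selection, which was not tested.

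The software was R 4.3.3, edgeR 4.0.16 (glmQLFit, glmQLFTest) and limma 3.58.1. Loess normalization and glmQLFTest follow the study's Methods. The pseudocount of 0.5, scaled to library size, and the site as the only term were choices made here. Benjamini-Hochberg adjustment was over all 57090 peaks, of which edgeR's default filter removed 0. Standard errors were obtained from the log2 fold change and the F statistic. The fits were tested on simulated data. The batch was tested with the site as a covariate. Same-numbered libraries share a pool of mice per the labels, so the numbers pair the libraries, and their deviations from the site means correlated at -0.167 across peaks. Alternatives included TMM, library size alone, DESeq2 1.42.0, a minimum of 10 counts in every library, a replicate block, a threshold of 0.1 and each library left out. Thinning, density ranges and further choices of peaks were chosen after seeing the data.

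The members and lists were chosen with earlier results of these data known. The rule named the windows of the 5 genes and a comparison of wide gene-body peaks with promoter peaks. The plan named each promoter peak and the longest other peak over 1000 bp in its window. For each of these wide peaks, the plan also named the 2 peaks over 1000 bp outside the windows with the most similar profile. The reference used was GRCm38.p6, so start sites, gene bodies, marker genes and lists of related genes were not analysed here. The peak with the most counts replaced the promoter peak. Depth limits the counting error, and with 2 pools per site the spread between pools, library preparation and depth cannot be told apart.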

Additional observations from a re-analysis of the deposited data

How the results depend on the processing

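The number of window peaks past the threshold was 2 and changed with most settings, always with 0 lower in mandible. It was 5 with TMM normalization, 6 with library size alone, 5 with DESeq2, 7 with batch as a replicate block and 5 at an adjusted p-value under 0.1. It stayed 2 with at least 10 counts in every library and after thinning. With each library left out in turn it ranged from 1, without mandible replicate 2, to 14, without femur replicate 1, where femur replicate 2 stands alone and is assumed to vary like the mandible libraries and where 4.71% of all peaks passed. It was 6 without femur replicate 2 and 5 without mandible replicate 1. The cause was not tested. The wide sparse peaks kept their direction in all of these settings. The log2 difference between the wide and the highest-count peak was unchanged with TMM normalization and library size alone by construction, and did not reverse for any of the 5 genes. With all other peaks over 1000 bp of the window summed, dense ones included, it was 0.13 at Actb and 0.042 at Srgn. With the densest peak as reference, it was 1.005 at Actb. The reference near a start site was not run, since no start site was placed. In 16 of 100 combinations of named peak and alternative the sign differed, all in highest-count peaks. For batch B against batch A, 23 peaks passed with edgeR, 2 with DESeq2 and 0 without the site term (1672 at an unadjusted p-value under 0.05 with edgeR and the site term). The spread between 2 pools limits all values.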

Other observations

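Other wide sparse peaks were set beside the same kind of neighbor, a choice made after the data were seen. Of the 714 wide sparse peaks outside the 5 windows, 62 lay within 20 kb of a peak in the top 1% of CPM. These 62 had a median of 0.29 for the log2 fold change of mandible against femur, and 51 were above 0. In the 652 with no such peak within 20 kb the median was 0.017, and 337 were above 0, against 49.1% of all 57090 peaks. Both mandible libraries were above both femur libraries in 26 of the 62 (41.9%) and in 94 of the 652 (14.4%). By edgeR's quasi-likelihood test with batch as a replicate block, 12 of the 62 and 7 of the 652 had an adjusted p-value under 0.05 and were higher in mandible. Many of these peaks share a region or a neighbor, and the difference between the groups was not tested.

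By distance between centered log2 profiles over the 4 libraries, Peak_8435 on chromosome 11 from 59442329 to 59443696 was among the 2 peaks most like the wide peak of Srgn, Ywhaz and Hnrnpa2b1, out of 8522 peaks over 1000 bp outside the windows. It had 4.996 and 3.79 CPM in femur and 10.3 and 12.6 CPM in mandible. For Srgn the nearest peak was Peak_12403 on chromosome 12 from 80997730 to 80999899, with 12.7 and 6.74 CPM in femur and 18.7 and 26.4 CPM in mandible. For Actb it was Peak_38823 on chromosome 4 from 134656107 to 134657268, with 8.004 and 4.75 CPM in femur and 12.2 and 12.8 CPM in mandible. For Ywhaz it was Peak_27162 on chromosome 19 from 5881349 to 5883119, with 5.95 and 4.45 CPM in femur and 11.7 and 20.5 CPM in mandible. For Ccnl1 it was Peak_13243 on chromosome 12 from 111514143 to 111515399, with 5.70 and 3.06 CPM in femur and 8.33 and 15.5 CPM in mandible, at a distance of 0.646 where the nearest peaks of the other genes were at 0.122 to 0.333. A profile over 4 libraries holds little information, and each of these peaks was lowest in femur replicate 2.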
